A study of Mus musculus with 24 samples.

Results

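The genes followed here are the nuclear genes that encode subunits of the 5 oxidative phosphorylation (OXPHOS) complexes. They were measured by RNA-seq in cell fractions enriched for immune cells from untreated and treated breast tumors of mice. Members were chosen by symbol: those starting with Ndufa, Ndufb, Ndufc, Ndufs or Ndufv (without the Ndufaf assembly factors), the 4 succinate dehydrogenase genes, and those starting with Uqcr, with Cox and a digit from 4 to 8, or with Atp5, pseudogenes left out. No measured value entered this rule. It gave 83 of the 16996 genes in the table, with, by their symbols, 39 in complex I, 4 in complex II, 8 in complex III, 15 in complex IV and 17 in complex V. This grouping by symbol is kept in all counts and extremes, although Ndufa4 is now placed in complex IV and Atp5sl acts in complex I assembly. The 83 genes carry 82 symbols, since Ndufa13 labels a pair of overlapping genes on chromosome 8, and the second of them (ENSMUSG00000048967) is named Yjefn3 in GENCODE M21.

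EMT6-hHER2 tumors, from a murine breast cancer line expressing human HER2, grew in the mammary gland of wild-type female Balb/c mice (10 to 12 weeks of age). At a tumor volume of 80 mm3 the mice stayed untreated or received an intravenous dose of trastuzumab (20 mg/kg), an antibody against HER2, of T-DM1 (15 mg/kg), the antibody linked to a maytansinoid that blocks microtubules, or of T-PNU (1 mg/kg), the antibody linked to an anthracycline derivative that damages DNA. On day 10 the CD45+ fraction, CD45 being the common surface protein of leukocytes, was enriched with beads, and 6 samples per group, 24 in all, were sequenced. Single samples are called by their names in the table, such as H1. Values are log2 of normalized expression as the authors made them, the depth per sample is unknown, and folds taken from values of this kind may be smaller than those from counts. The names of the samples also carry a number, whose meaning is not given. Those of the untreated samples lie far from those of the 3 treated groups, so any treatment against none and the number cannot be told apart. Among the treated groups the numbers of trastuzumab and T-DM1 samples follow on from each other. Those of T-PNU samples are set off by a smaller gap, so T-PNU and the number cannot be told apart either. T-DM1 and T-PNU differ in payload, in linker and mode of conjugation, and in dose, and these cannot be told apart either. The day of harvest was set by the size of the tumors in the T-PNU cohort, and tumor size is not given by sample in the sources used here, so its part in any difference was not tested.

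The OXPHOS complexes sit in the inner mitochondrial membrane. Complex I oxidizes NADH and complex II succinate, complex III passes the electrons on to cytochrome c and complex IV to oxygen, and complex V (ATP synthase) makes ATP from the resulting proton gradient. Most subunits are encoded in the nucleus and a few in the mitochondrial genome, so each of complexes I, III, IV and V is assembled from both sources, while complex II is wholly nuclear. In leukocytes the use of OXPHOS against glycolysis differs with cell type and activation.

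Leukocyte genes stood high in the enriched fraction: the mean of Ptprc, which encodes CD45, ran from 14.33 in T-DM1 to 15.09 in T-PNU samples. Genes of tumor epithelium and stroma were present as well, with the collagen gene Col1a2 between 14.51 in T-PNU and 15.87 in T-DM1 samples. In T-DM1 samples the mean of Col1a2 thus stood above that of Ptprc, without regard to transcript length. What part of the OXPHOS values came from leukocytes was not tested. The heatmaps of the study show 20 of the 24 samples. They leave out a pair of untreated samples (B1, C1) and a pair given trastuzumab (E2, B3). All 24 are used here first, and the 20 are given where they change a call.

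The members were mostly well expressed genes, and 74 of the 83 lay above the median of all genes. Per kilobase of the longest annotated transcript, on the log2 scale, Atp5b, the catalytic beta subunit of ATP synthase, had the highest mean level over the 24 samples (14.40), followed by Cox4i1 (13.87), a regulatory subunit of cytochrome c oxidase outside its mitochondrially encoded core, and the hinge protein gene Uqcrh of complex III (13.26). The lowest were Atp5l (2.51), the second Ndufa13 gene (3.57) and Ndufa4l2 (3.76). The median SD of a member among the 6 samples of a group was 0.11 in T-DM1, 0.13 in untreated, 0.16 in T-PNU and 0.17 in trastuzumab samples, against 0.15, 0.22, 0.20 and 0.18 over all genes.

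Averaged over the 83 members, each set against its own 24-sample mean, T-PNU samples lay lowest and T-DM1 samples highest. T-PNU samples had a mean deviation of -0.11 ± 0.11 (SD, n = 6), with H1 lowest at -0.25 and C2 next at -0.21, and D2 highest at 0.02. T-DM1 samples lay at 0.08 ± 0.05, from 0.02 in E3 to 0.14 in G3. All T-DM1 samples thus lay above the highest T-PNU sample, though E3 and D2 were nearly level, whereas untreated samples (0.03 ± 0.06, B1 lowest at -0.10) and trastuzumab samples (0.0047 ± 0.12, from -0.13 in H2 to 0.21 in A3) overlapped both. H1 and D2 marked both ends of the T-PNU group in complexes I, III, IV and V alike. In complex II the lowest T-PNU sample was C2 (-0.20), and the groups overlapped widely.

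**Figure D1:**
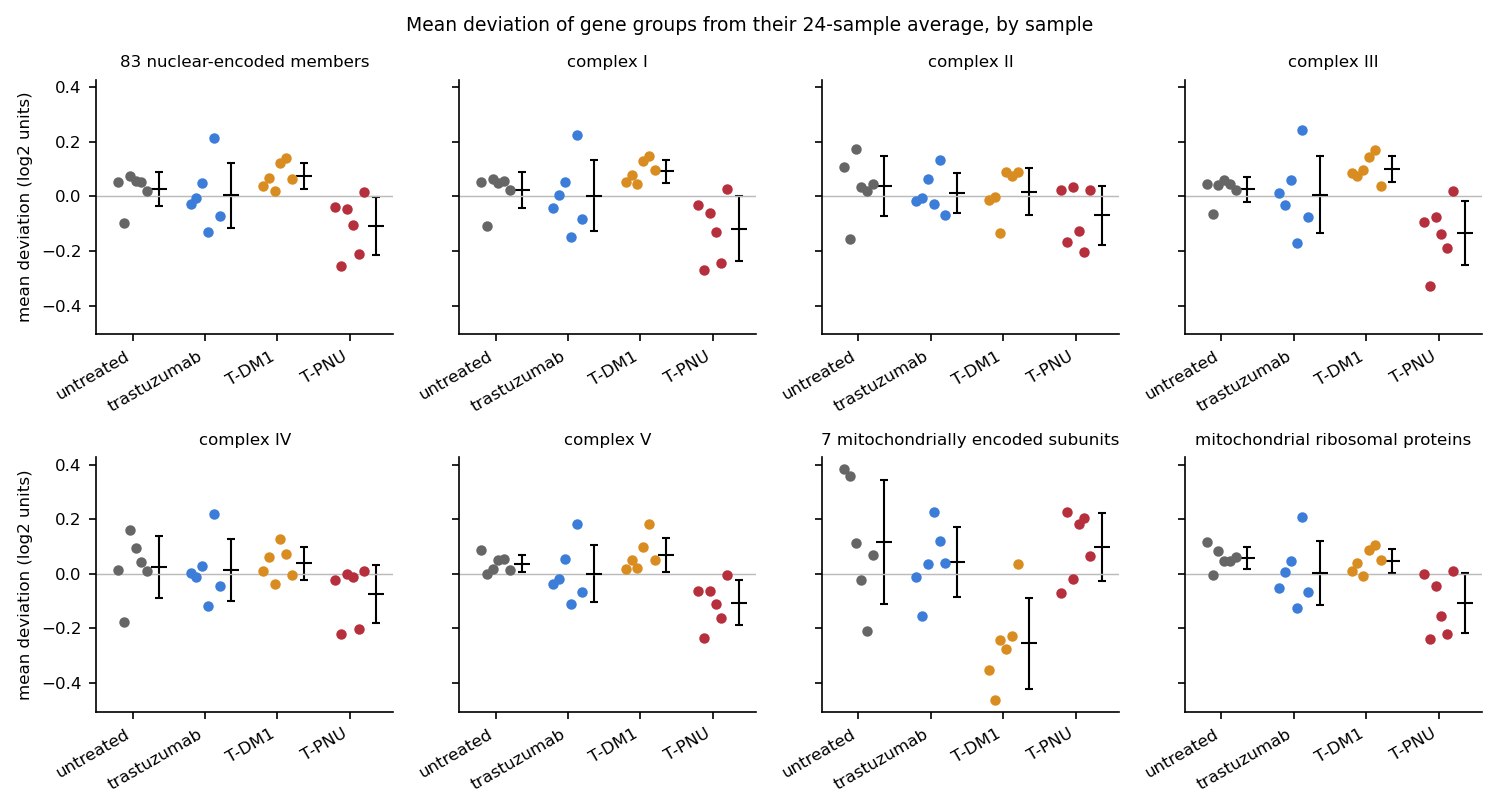
Each panel plots, for 1 gene group, the mean deviation from the 24-sample average in log2 units (y axis) of every sample (points) in the 4 groups (x axis), with the group mean and SD in black. The 83 members lie lowest in T-PNU samples H1 (-0.25) and C2 (-0.21), while the 7 mitochondrially encoded subunits lie lowest in T-DM1 samples (down to -0.46).

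The comparison of the antibody-drug conjugates with each other, T-PNU against T-DM1, gave the clearest difference among the members. OXPHOS subunit genes were lower in T-PNU samples. At an adjusted p under 0.05, 33 of the 83 (39.8%) fell and 0 rose (limma, Benjamini-Hochberg over all genes). Without the second Ndufa13 gene, 32 of 82 fell (39.0%). Of all genes, 17.4% fell and 12.4% rose, 29.8% in either direction. At an unadjusted p under 0.05, 41 of the 83 were lower and 0 higher, beside 3830 and 3460 of all 16996 genes. The median log2 fold change of the members was -0.17 against 0.03 for all genes tested. The 33 genes that fell did so by 0.18 to 0.59 on the log2 scale, so that in percent Ndufb10 fell by 11.5% and Uqcr11 fell by 33.6%, and none passed the stricter rule of an adjusted p under 0.01 with a fold above 2, as 1.91% of all genes did. By complex, 18 of 39 genes fell in complex I, 0 of 4 in complex II, 4 of 8 in complex III, 3 of 15 in complex IV and 8 of 17 in complex V.

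Single T-PNU samples weighed on this count. With 0 higher in each case, it was 17 without H1 and 25 without C2 (11.8% and 13.3% of all genes lower, 6.71% and 8.86% higher). Without both, the samples with the lowest mean of the members, 4 genes remained lower and 0 were higher. These were Ndufv1, Cox4i1, Atp5g2 and the second Ndufa13 gene (Yjefn3 in GENCODE M21), which was hardly expressed. They made up 4.82% of the members beside 4.65% of all genes (3.32% higher). Over the 20 samples of the heatmaps 36 members were lower and 0 higher (20.1% and 19.8% of all genes), and with sample weights 37 and 0 (22.7% and 21.9%). The pair H1 and C2 was left out after the data had been seen, and because of these genes, so the value shows only how far the count rests on them. All 33 genes kept a negative fold change without both samples. They were chosen as lower from data that hold the remaining samples, so the kept sign adds no separate evidence. Leaving out each of the 12 samples of these groups in turn, 17 members were called in every fit. How many of all genes were called in every fit was not counted. The study describes 4 of the T-PNU samples as high-responding and marks others as low-responding. The part of response in the number of members called was not tested.

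**Figure D2:**
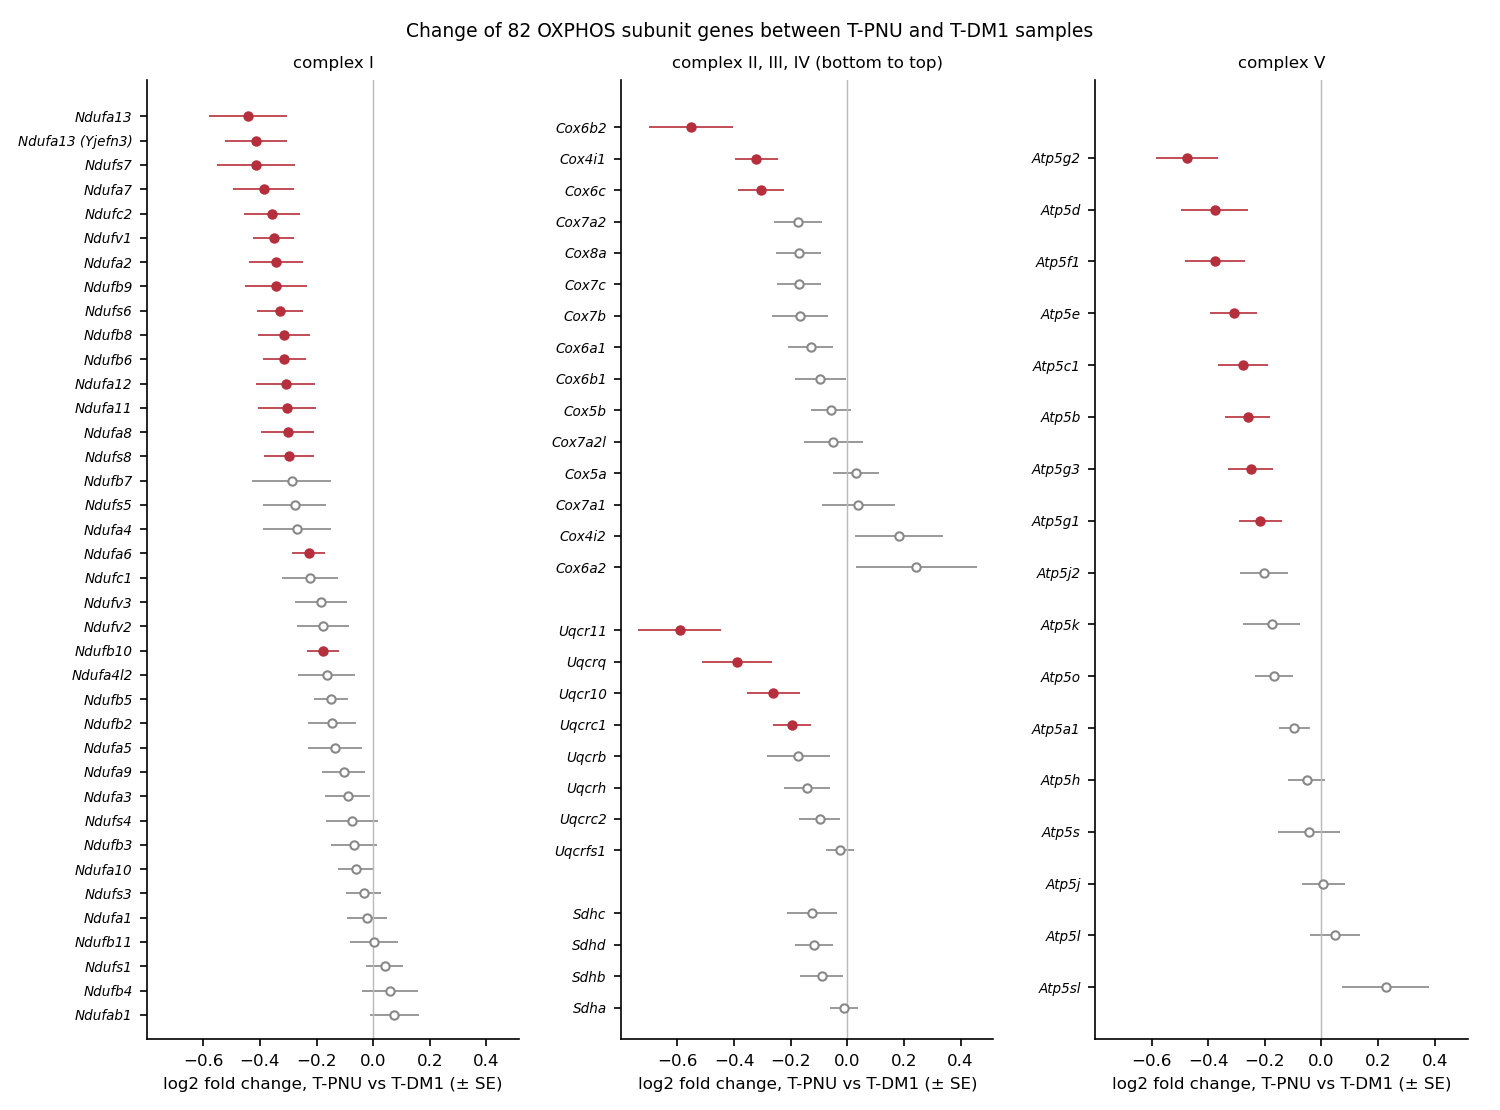
Log2 fold change between T-PNU and T-DM1 samples (x axis, with SE bars) of 82 of the members, sorted within each complex (y axis). Filled red points mark the 32 genes shown that had an adjusted p under 0.05, all left of 0, and the largest fall is that of Uqcr11 (-0.59).

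In complex I, the NADH-oxidizing arm carries the flavin and most of the iron-sulfur clusters. Ndufv1, which encodes the flavoprotein subunit that takes electrons from NADH, lay at 10.84, 11.19 and 11.30 (lowest, median and highest) in T-PNU samples and at 11.37, 11.50 and 11.61 in T-DM1 samples. The groups did not overlap, although H1 stood well below the other T-PNU samples, and the log2 fold change was -0.35 ± 0.07 (SE; adjusted p = 0.00263), the smallest adjusted p of any member. Ndufs8 and Ndufs7, iron-sulfur subunits of the arm that joins the membrane part, fell too, by 0.30 (adjusted p = 0.0169) and 0.41 (adjusted p = 0.0283). Ndufs1, the largest subunit and a bearer of iron-sulfur clusters beside Ndufv1, was not among the genes that fell, with a difference of 0.04 ± 0.07 (adjusted p = 0.652).

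Ndufs7 values were 9.28, 9.74 and 10.12 in T-PNU and 9.76, 10.20 and 10.32 in T-DM1 samples. They overlapped only through T-DM1 sample H3. Among the accessory subunits, which surround the core, Ndufa13 (the gene also known as Grim19) had the largest fall, 0.44 ± 0.14 (adjusted p = 0.0202), from a median of 11.49 in T-DM1 to 11.00 in T-PNU samples, with overlap again through H3 alone. The other gene under that symbol was hardly expressed, at 3.05 in T-PNU and 3.44 in T-DM1 samples (medians), and reads of this overlapping pair on the same strand may have been split between them, so its fall of 0.41 is uncertain. At the other end stood Ndufab1, the mitochondrial acyl carrier protein, with 0.07 ± 0.09 (adjusted p = 0.513). Other genes of complex I fell by 0.18 (Ndufb10) to 0.39 (Ndufa7).

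Complex II, which also serves as a citric acid cycle enzyme, had the median closest to 0 (-0.10). Sdha, the flavoprotein, lay at 12.65, 12.75 and 12.83 in T-PNU and at 12.66, 12.77 and 12.87 in T-DM1 samples. The ranges nearly coincided, with a log2 fold change of -0.01 ± 0.05 (adjusted p = 0.882). Sdhb, the iron-sulfur subunit, differed by -0.09 ± 0.07 (adjusted p = 0.354), and Sdhc and Sdhd, the membrane anchors, by -0.12 each (adjusted p = 0.277 and 0.182). A difference of complex II from the other complexes was not tested.

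Complex III held the member with the largest fall. Uqcr11, a small accessory subunit, lay at 9.39, 9.96 and 10.43 in T-PNU and at 10.17, 10.60 and 10.70 in T-DM1 samples. The groups overlapped only through T-DM1 sample H3, which lay apart below the others of its group. Its log2 fold change was -0.59 ± 0.15 (adjusted p = 0.00625). The small subunits Uqcrq and Uqcr10 fell by 0.39 (adjusted p = 0.0219) and 0.26 (adjusted p = 0.0400), and Uqcrc1, a core protein of the matrix side, by 0.19 (adjusted p = 0.0316). Uqcrfs1, the Rieske iron-sulfur protein that hands electrons towards cytochrome c, differed by -0.03 ± 0.05 (adjusted p = 0.691).

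Complex IV has several subunits with a common and a tissue-restricted form, which allowed the forms to be set side by side. Of subunit 4, the common Cox4i1 (13.87 per kilobase on the log2 scale) lay at 13.04, 13.36 and 13.55 in T-PNU and at 13.57, 13.67 and 13.74 in T-DM1 samples. It fell without overlap of the groups, by 0.32 ± 0.08 (adjusted p = 0.00499), while Cox4i2 (6.14), known from lung and oxygen-sensing cells, differed by 0.18 ± 0.16 (adjusted p = 0.373). Of subunit 6b the reverse held, in that the rare testis form Cox6b2 (6.65) fell by 0.55 ± 0.15 (adjusted p = 0.00937), from 5.94, 6.18 and 6.63 in T-DM1 to 5.47, 5.70 and 5.93 in T-PNU samples, whereas the common Cox6b1 (13.22) differed by -0.09 ± 0.09 (adjusted p = 0.433).

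For the remaining pairs neither form passed the test. Cox6a1 (12.24) differed by -0.13 ± 0.08 and the muscle form Cox6a2 (5.90) by 0.24 ± 0.21, the highest value in complex IV (adjusted p = 0.218 and 0.382). Cox7a2 (12.72) differed by -0.17 ± 0.09, the heart and muscle form Cox7a1 (6.94) by 0.04 ± 0.13, and Cox7a2l (11.77), which tethers complexes III and IV in supercomplexes, by -0.05 ± 0.10 (adjusted p = 0.124, 0.835 and 0.734). Cox8a (12.63) differed by -0.17 ± 0.08 (adjusted p = 0.0986). Ndufa4, named after complex I but now placed in complex IV, and its hypoxia-induced relative Ndufa4l2 differed by -0.27 ± 0.12 and -0.16 ± 0.10 (adjusted p = 0.0905 and 0.205). Besides Cox4i1 and Cox6b2, complex IV had a fall in Cox6c, by 0.30 (adjusted p = 0.00923), with no overlap between the groups.

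In complex V the rotating c ring is built from identical proteins encoded by Atp5g1, Atp5g2 and Atp5g3, which differ in their import signals. All of them fell, Atp5g2 by 0.47 ± 0.11 (adjusted p = 0.00417), Atp5g3 by 0.25 ± 0.08 (adjusted p = 0.0230) and Atp5g1 by 0.22 ± 0.08 (adjusted p = 0.0372). Atp5g2 lay at 9.08, 9.53 and 9.80 in T-PNU and at 9.59, 10.02 and 10.13 in T-DM1 samples, and only T-DM1 sample H3 fell within the T-PNU range. The catalytic Atp5b lay at 14.99, 15.16 and 15.33 in T-PNU and at 15.30, 15.45 and 15.53 in T-DM1 samples, and with this slight overlap it fell by 0.26 ± 0.08 (adjusted p = 0.0179). Its partner Atp5a1, the alpha subunit of the same head, differed by -0.10 ± 0.05 (adjusted p = 0.181). The highest value in complex V was that of Atp5sl with 0.23 ± 0.15 (adjusted p = 0.262), a gene that GENCODE M21 lists as Dmac2 and that acts in complex I assembly in spite of its former name.

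Without overlap of the groups, every T-PNU sample lay below every T-DM1 sample in 9 of the 83 members, as it did in 7.73% of all genes. Besides Ndufv1, Cox4i1, Cox6b2, Cox6c and the second Ndufa13 gene these were Atp5f1, Ndufb6, Ndufa6 and Ndufb10.

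**Figure D3:**
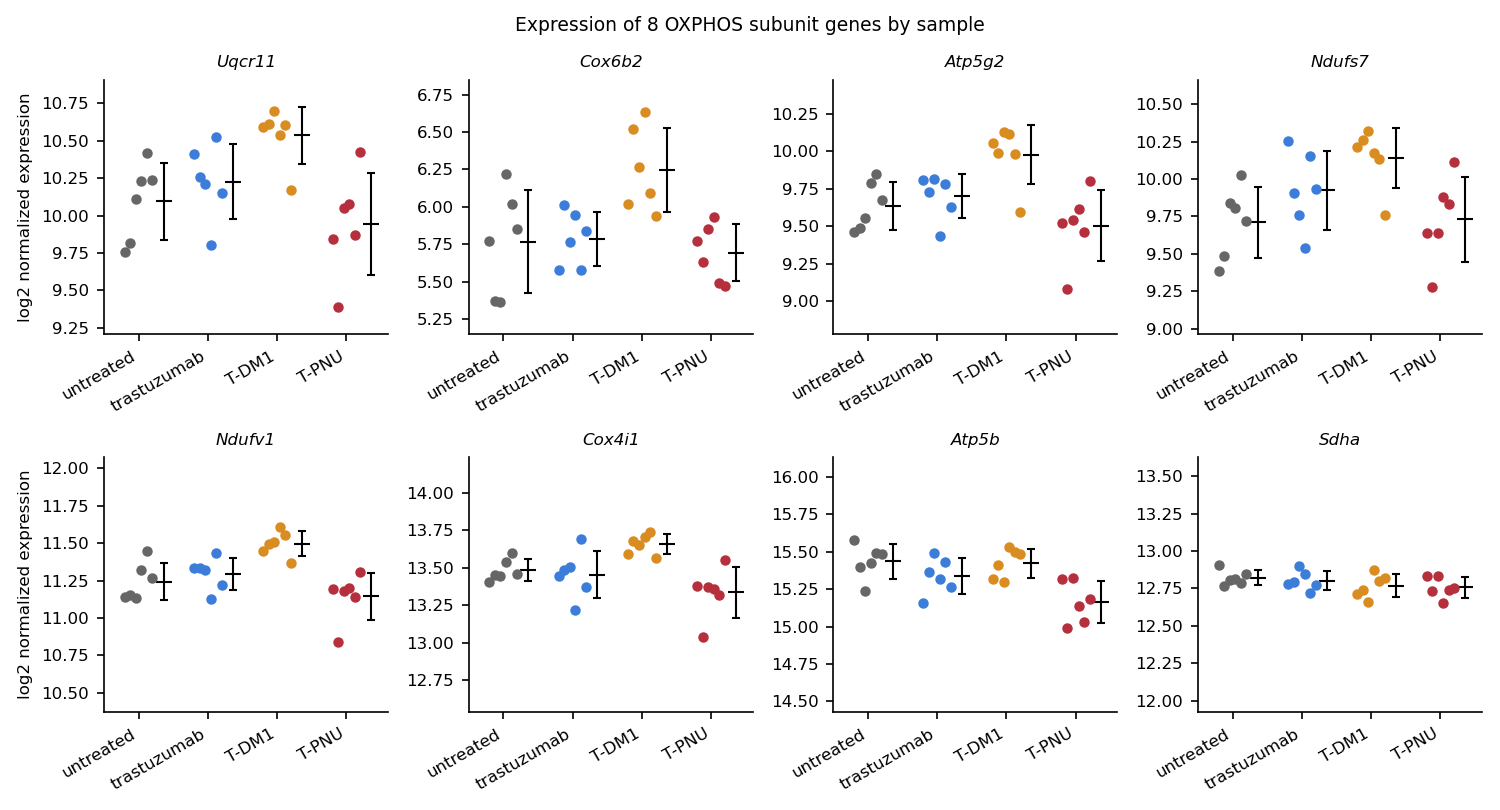
Log2 normalized expression (y axis, each panel spanning the same number of log2 units) of 8 members in every sample (points) of the 4 groups (x axis), with the group mean and SD in black. Uqcr11 ranges from 9.39 in a T-PNU sample to 10.70 in a T-DM1 sample, and Sdha stays within 12.65 to 12.90 in all groups.

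Promoters are shown for Uqcr11, Cox6b2 and Atp5g2, the members with the largest fall in complexes III, IV and V. That of Ndufs7 stands for complex I, where Ndufa13 fell further. Whether these genes varied together between samples was not tested. The promoters are RefSeq sequences of GRCm38.p6, read 5′ to 3′ on the strand of the gene from 250 bases before to 50 bases after the start. Capitals mark 1 match per window to a motif known from promoters of respiratory genes: CCGGAAG, the core bound by ETS factors such as GABP, in Uqcr11 (chr10:80406772-80407071, minus strand, 66 bases before the start), GCGCATGCGC, a form of the palindrome bound by NRF1 (searched with its sixth base free), in Atp5g2 (chr15:102670998-102671297, minus strand, 42 bases before the start, where the match reads the same on both strands), and AAGATGGC, bound by YY1, in Ndufs7 (chr10:80249199-80249498, plus strand, from base 25 after the start). None of the 4 motifs searched was found in the window of Cox6b2 (chr7:4753045-4753344, minus strand).
Uqcr11: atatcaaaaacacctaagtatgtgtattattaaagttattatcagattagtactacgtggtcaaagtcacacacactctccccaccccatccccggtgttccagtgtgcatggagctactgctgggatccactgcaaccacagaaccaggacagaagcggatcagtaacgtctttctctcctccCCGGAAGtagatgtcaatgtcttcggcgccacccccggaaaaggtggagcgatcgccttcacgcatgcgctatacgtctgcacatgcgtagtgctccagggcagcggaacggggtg
Atp5g2: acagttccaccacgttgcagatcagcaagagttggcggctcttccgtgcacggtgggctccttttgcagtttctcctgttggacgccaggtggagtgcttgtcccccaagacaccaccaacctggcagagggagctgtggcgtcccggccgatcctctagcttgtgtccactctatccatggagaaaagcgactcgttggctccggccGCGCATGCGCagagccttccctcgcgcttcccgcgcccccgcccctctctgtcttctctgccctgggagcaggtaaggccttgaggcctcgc
Ndufs7: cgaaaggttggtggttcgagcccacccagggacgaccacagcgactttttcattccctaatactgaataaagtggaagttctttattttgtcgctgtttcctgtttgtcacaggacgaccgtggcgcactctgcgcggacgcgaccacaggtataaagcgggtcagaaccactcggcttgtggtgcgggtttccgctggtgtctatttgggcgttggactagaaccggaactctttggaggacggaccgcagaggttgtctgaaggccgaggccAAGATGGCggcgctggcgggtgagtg
Cox6b2: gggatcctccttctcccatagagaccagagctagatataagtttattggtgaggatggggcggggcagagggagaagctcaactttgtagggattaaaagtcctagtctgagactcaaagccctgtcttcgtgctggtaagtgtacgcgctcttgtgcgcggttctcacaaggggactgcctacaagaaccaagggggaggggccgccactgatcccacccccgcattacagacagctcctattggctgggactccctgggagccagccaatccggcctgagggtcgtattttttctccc

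Windows were found for 65 of the 82 member symbols, 70 windows in all. Searched on both strands, the NRF1 motif was in 25.7% of them and in 4.60% of all 32851 windows, the ETS core in 22.9% against 8.86%, the YY1 motif in 12.9% against 2.75%, and the ERR motif CAAGGTCA in 5.71% against 1.56%. At least 1 motif was held by 52.9% of the member windows and 16.1% of all windows. Between the genes that fell and the others, NRF1 matched 8 of the 28 windows of these genes and 10 of the 42 windows of the others, and the ETS core 4 of 28 and 12 of 42. These counts describe letters in the window, and binding was not measured.

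Against untreated samples T-PNU samples showed the members shifted the same way, but short of the threshold. Of the 83 members 75 had a negative log2 fold change, as did 8245 of all 16996 genes. The median was -0.14 against 0.01 for all genes. At an unadjusted p under 0.05, 35 members were lower and 0 higher, beside 2563 and 1655 of all genes. In limma 0 members were lower and 0 higher at an adjusted p under 0.05, where 0.0530% of all genes fell and 0.135% rose. The lowest member of each complex was Ndufa4 (-0.33 ± 0.12, adjusted p = 0.104), Sdhd (-0.16 ± 0.07, adjusted p = 0.151), Uqcrb (-0.32 ± 0.11, adjusted p = 0.0984), Cox7b (-0.28 ± 0.10, adjusted p = 0.100) and Atp5f1 (-0.32 ± 0.11, adjusted p = 0.0915). Uqcrb binds ubiquinone in complex III, Cox7b is a small subunit of complex IV, and Atp5f1 forms the stalk that holds the ATP synthase head.

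Ndufa4 lay at 11.71, 11.78 and 11.97 in T-PNU and at 11.80, 12.15 and 12.47 in untreated samples, which overlapped through untreated sample C1. In 2 members, Ndufb5 and Atp5h, every T-PNU sample lay below every untreated sample, as in 0.671% of all genes. Ndufb5 lay at 10.86, 10.97 and 11.08 in T-PNU and at 11.10, 11.15 and 11.33 in untreated samples. At the upper end stood Cox6a2 (0.40 ± 0.21, adjusted p = 0.239), Atp5sl (0.21 ± 0.15, adjusted p = 0.377), Ndufb7 (0.10 ± 0.14, adjusted p = 0.642), Uqcrc1 (-0.045 ± 0.07, adjusted p = 0.672) and Sdha (-0.06 ± 0.05, adjusted p = 0.405) in their complexes.

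This call changed with the choice and the weighting of the samples. Over the 20 samples, 19 members (22.9%) were lower in T-PNU than in untreated samples and 1 higher, where 15.7% of all genes were lower and 15.3% higher. The 19 were 12 genes of complex I, Ndufa4 (-0.39) and Ndufa12 (-0.35) in front, 3 each of complexes IV and V, among them Atp5f1 (-0.39), Atp5c1 (-0.35) and Atp5b (-0.33), and Uqcrb of complex III (-0.37). The gene that rose was Cox6a2 (0.51). With sample weights estimated in limma over all 24 samples, 24 were lower and 1 higher (background 17.1% each). Without untreated C1 alone, 9 were lower and 1 higher (9.68% and 7.55% of all genes).

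T-DM1 against untreated samples moved few members. Atp5d, the delta subunit of the ATP synthase stalk, rose by 0.40 ± 0.12 (adjusted p = 0.0424), Ndufa11, an accessory subunit of the membrane arm of complex I, by 0.35 ± 0.10 (adjusted p = 0.0444), Ndufv1 by 0.25 ± 0.07 (adjusted p = 0.0424) and the second Ndufa13 gene by 0.37 ± 0.11 (adjusted p = 0.0444). These were 4 of 83 higher and 0 lower, near the 4.11% of all genes that rose (2.15% fell, 6.27% in either direction). Without the second Ndufa13 gene, 3 of 82 were higher. Over all 83 members the median log2 fold change was 0.02, and they split into 45 higher and 38 lower values. Since this contrast and the preceding one share the untreated samples, and the T-PNU against T-DM1 contrast shares the T-DM1 samples, their values are set side by side only.

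Atp5d lay at 11.66, 12.01 and 12.09 in T-DM1 and at 11.25, 11.54 and 11.85 in untreated samples, and all T-DM1 samples but H3 lay above the untreated range. The extremes of the other complexes did not pass the test. Cox6b2 was highest in complex IV (0.48 ± 0.15, adjusted p = 0.0535) and Cox4i2 lowest (-0.35 ± 0.16, adjusted p = 0.177), Uqcr11 highest in complex III (0.44 ± 0.15, adjusted p = 0.0706) and Uqcrb lowest (-0.15 ± 0.11, adjusted p = 0.446). Ndufs7 was highest in complex I (0.43 ± 0.14, adjusted p = 0.0607) and Ndufs1 lowest (-0.21 ± 0.07, adjusted p = 0.0507), with Atp5j lowest in complex V (-0.17 ± 0.08, adjusted p = 0.177). In complex II the values ran from -0.05 (Sdha) to 0.02 (Sdhb). Ndufa8 was the 1 member whose untreated values all lay below its T-DM1 values, as in 2.05% of all genes. Without T-DM1 sample H3, 9 members rose and 1 fell (5.48% and 3.37% of all genes). Over the 20 samples 0 passed in limma (0.906% of all genes rose and 1.1% fell), and with sample weights 12 rose and 3 fell (11% and 8.43%).

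The rises in T-DM1 samples lay in members of high GC content. Across the 83 members the log2 fold change against untreated samples correlated with the GC content of the longest transcript with a rank correlation of 0.54, as it did across all genes (0.53). Among the 28 members of highest GC content (53.4 to 65.6%) the median was 0.15, and among the 28 of lowest (37.0 to 48.6%) it was -0.07. Such a correlation was not limited to T-DM1. Against untreated samples it was 0.46 across the members for trastuzumab and 0.43 for T-PNU, beside 0.38 and 0.08 across all genes. Within samples, the deviations of all genes correlated with GC content in the T-DM1 group by up to 0.50, positive in 5 of 6 samples, with H3 at -0.19. Trastuzumab samples were also positive in 5 of 6, running from -0.44 in H2 to 0.19. Untreated and T-PNU samples were positive in 2 of 6 each. Untreated samples ran from -0.40 in A1 to 0.20, and T-PNU samples from -0.32 in H1 to 0.10. Medians were 0.38 in T-DM1, 0.06 in trastuzumab, -0.20 in untreated and -0.08 in T-PNU samples. The correlations against untreated samples all share these untreated values. The trend was then removed from each sample by a loess curve, an alternative chosen after seeing the data. In T-DM1 against untreated samples 0 members then passed (0.662% of all genes rose and 1.02% fell). The part of GC content in library preparation or in the cells was not tested.

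In T-PNU against T-DM1 the rank correlation was weaker than in T-DM1 against untreated samples, -0.30 across the members and -0.27 across all genes. Of the 33 genes that fell, 17 were among the 28 members of highest GC content, 11 among the middle 27 and 5 among the 28 of lowest. With the GC trend removed, 34 members fell and 0 rose (17.4% and 11% of all genes), of which 23 were among the 33 and 11 were not. Among the calls lost were those of Atp5d, Ndufs7, both Ndufa13 genes, Cox4i1, Ndufb9, Atp5g2, Ndufb10 and Ndufa11. They had not all shrunk alike. Ndufb9 went from -0.34 to -0.26 and Ndufb10 from -0.18 to -0.14, whereas Atp5g2 went from -0.47 to -0.16 (adjusted p = 0.0548) and the second Ndufa13 gene from -0.41 to -0.07. Uqcr11, which stayed called, fell by 0.37 (adjusted p = 0.0125). The number of members that fell thus changed little, while 10 of the 33 were replaced.

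Atp5d, Ndufs7 and Uqcr11 lie within 268 kb of chromosome 10 (80138632 to 80406830, GRCm38). There were 15 other genes measured in this stretch, with a median GC content of 59.3%. Of these, 7 were lower in T-PNU than in T-DM1 samples and 0 higher (17.4% and 12.4% of all genes). In T-DM1 against untreated samples 6 were higher and 0 lower (4.11% and 2.15% of all genes). The 3 members thus lie near some genes called in the same direction. These counts were made without removal of the GC trend, under which Atp5d and Ndufs7 lost their calls against T-DM1. The part of GC content in them was not tested.

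**Figure D4:**
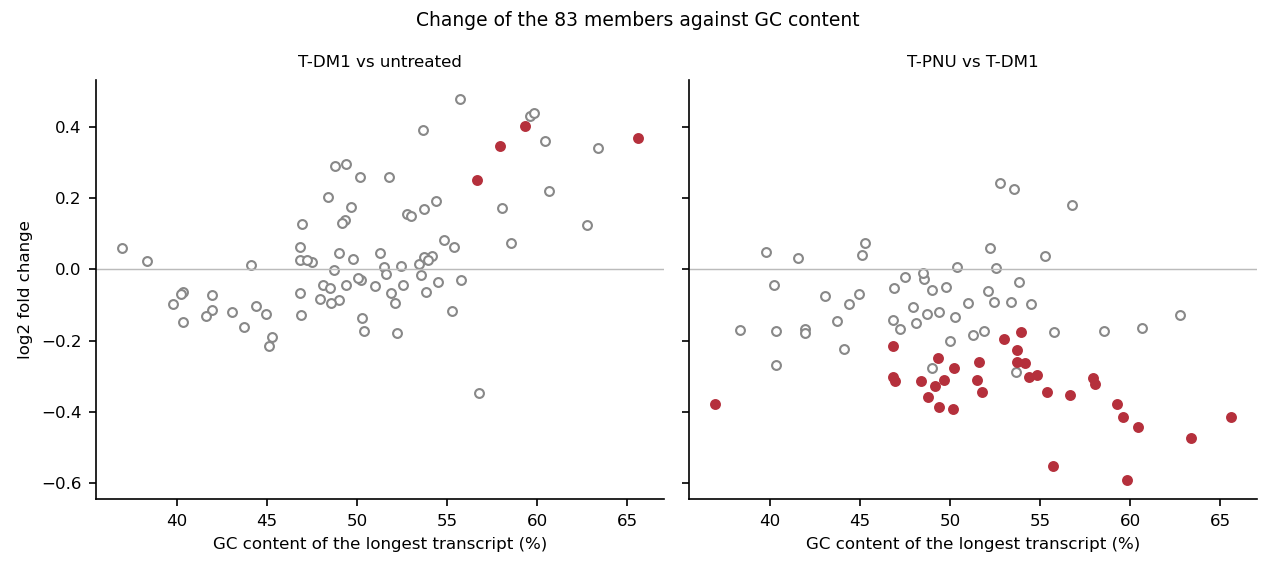
Log2 fold change (y axis) of the 83 members against the GC content of the longest transcript in percent (x axis), for T-DM1 against untreated samples (left) and T-PNU against T-DM1 samples (right). Filled red points passed an adjusted p of 0.05, 4 genes on the left, all at a GC content of 56.7% or more, and 33 on the right, from 37.0 to 65.6%.

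Trastuzumab and untreated samples did not differ detectably in these genes. In limma 0 members were higher or lower at an adjusted p under 0.05, where 0.247% of all genes rose and 0.0118% fell. At an unadjusted p under 0.05, 2 members were higher and 2 lower, beside 903 and 588 of all 16996 genes. The median of the members was -0.05, with their extremes at Cox6a2 (0.44 ± 0.21, adjusted p = 0.564) and Ndufa5 (-0.18 ± 0.10, adjusted p = 0.640). The trastuzumab group had the widest spread of the members, and A3 was the highest of all 24 samples in their mean and H2 lay below all untreated samples.

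The conjugates were also set against the antibody alone. Between T-PNU and trastuzumab samples 0 members passed in limma (0.00588% of all genes rose and 0 fell), at a median of -0.10. With an unadjusted p under 0.05, 0 of the 83 were higher and 8 lower, beside 1331 and 1977 of all 16996 genes. The share of lower members was thus not above that of all genes. The lowest member was Uqcr11 (-0.28 ± 0.15, adjusted p = 0.279), then Atp5f1 (-0.27 ± 0.11, adjusted p = 0.199). Over the 20 samples 9 members were lower and 1 higher, 10.8% and 1.2% of them beside 13.5% and 14.6% of all genes, and with sample weights 1 was lower and 0 higher (7.65% and 5.62%). Between T-DM1 and trastuzumab samples 0 members passed (0.212% of all genes rose and 0.435% fell, 0.647% in either direction), at a median of 0.07. With an unadjusted p under 0.05, 10 members were higher and 1 lower, beside 1355 and 1249 of all genes. The extremes of the members were Cox6b2 (0.46 ± 0.15, adjusted p = 0.146) and Cox4i2 (-0.37 ± 0.16, adjusted p = 0.244).

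**Figure D5:**
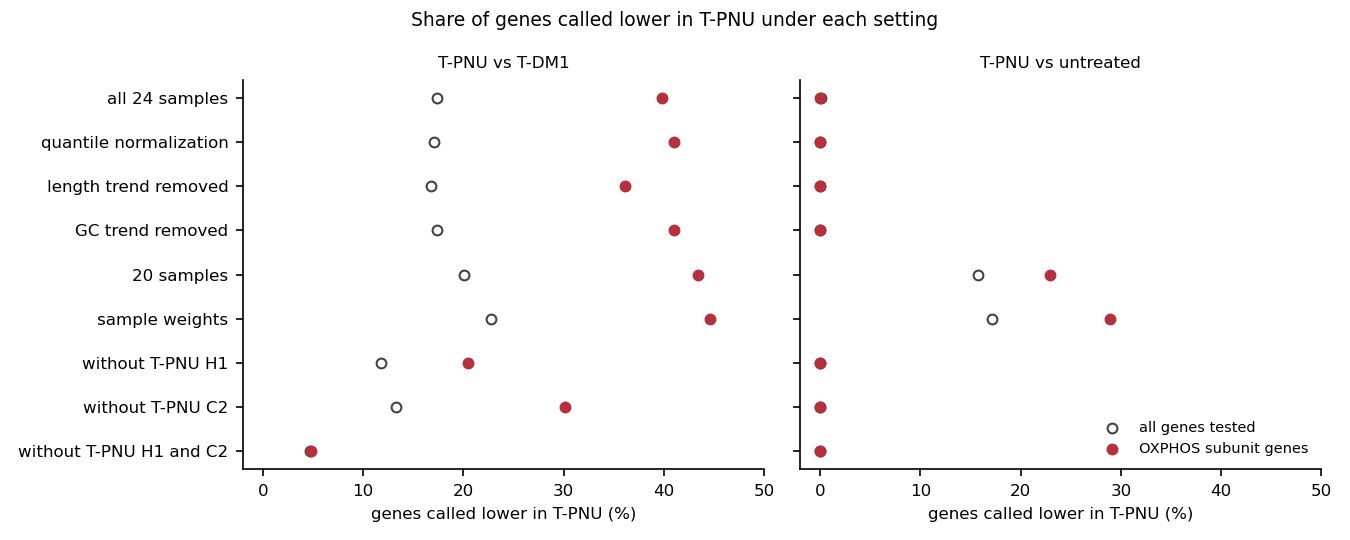
Share of genes called lower in T-PNU samples in percent (x axis) under 9 settings (y axis), for the members (filled red) and all genes tested (open), against T-DM1 (left) and untreated samples (right). Against T-DM1 the members lie at 36.1 to 44.6% in the first 6 settings and at 4.82% without T-PNU samples H1 and C2, and against untreated samples they leave 0 in only the 20 samples (22.9%) and the weighted fit (28.9%).

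In T-PNU against T-DM1 samples the subunits encoded by the mitochondrial genome went the other way. Of the 13, 7 were measured, and 6 of them rose and 0 fell, with a median log2 fold change of 0.36. COX1, the catalytic subunit of complex IV, rose by 0.44 ± 0.12 (adjusted p = 0.0101), ND5, a proton-pumping subunit of complex I, by 0.47 ± 0.11 (adjusted p = 0.00475) and ND4 by 0.27 ± 0.09 (adjusted p = 0.0285). ND6 did not pass (0.28 ± 0.16, adjusted p = 0.187). In T-DM1 against untreated samples 4 of the 7 fell (ND5 by 0.53, adjusted p = 0.00880, and ND2, ND4 and CYTB) and 0 rose, and in T-PNU against untreated samples 0 passed in limma, at a median of -0.04, of the same sign as that of the 83 members.

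By sample, the mean deviation of the mitochondrially encoded subunits was -0.26 ± 0.17 in T-DM1 (from -0.46 in D3 to 0.04 in H3) and 0.10 ± 0.12 in T-PNU samples (from -0.07 in G1 to 0.23 in H1). H1, the T-PNU sample lowest in nuclear subunits, was thus the highest of its group in the mitochondrial ones. With the GC trend removed 2 of the 7 rose, and without H1 and C2 0 did. The libraries were made from polyadenylated RNA, and the part of RNA quality in the level of mitochondrial transcripts was not tested.

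Genes that serve the same organelle were read from lists by function, beside the 17.4% of all genes that fell and the 12.4% that rose in T-PNU against T-DM1 samples. Of 77 mitochondrial ribosomal protein genes, which translate the mitochondrial messages, 26 fell (33.8%) and 0 rose (median -0.14), with Mrpl14 lowest (-0.50, adjusted p = 0.00353) and Mrpl44 highest (0.11, adjusted p = 0.261). Of 39 genes of import and the inner membrane 17 fell (43.6%) and 0 rose (median -0.20), led by Slc25a4, an ADP/ATP carrier (-0.59, adjusted p = 0.00186), with Tomm34 highest (0.27, adjusted p = 0.278). Atpif1, the inhibitor of ATP synthase, fell by 0.45 (adjusted p = 0.0113). Of 47 assembly factors 8 fell (17.0%, near the share of all genes) and 2 rose (median -0.06), from Uqcc2 of complex III (-0.70, adjusted p = 0.00139) to Coa5 of complex IV (0.36, adjusted p = 0.0115).

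Of 16 genes of the citric acid cycle and the pyruvate dehydrogenase complex 5 fell (31.2%) and 0 rose (median -0.11), from Mdh2 (-0.30, adjusted p = 0.00670) to Ogdh (0.12, adjusted p = 0.133). Of 19 genes of electron carriers and ubiquinone synthesis 1 fell (5.26%) and 3 rose (15.8%; median -0.10), with Coq4 lowest (-0.47, adjusted p = 0.00668), Coq8a highest (0.40, adjusted p = 0.456) and cytochrome c (Cycs) at -0.11 (adjusted p = 0.340). Outside the organelle, 19 of 76 cytosolic ribosomal protein genes fell (25.0%) and 0 rose (median -0.18), from Rpl36 (-0.79, adjusted p = 0.0174) to Rps27 (0.17, adjusted p = 0.527). Without H1 and C2, when 4.65% of all genes were lower, the organelle's lists lay below that share, with 1 mitochondrial ribosomal (1.3%), 1 import (2.56%), 2 assembly (4.26%), 0 citric acid cycle and 0 electron carrier genes lower, while 9 cytosolic ribosomal protein genes were (11.8%).

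Among 14 regulators of respiratory genes 2 fell (14.3%) and 0 rose, a share below the 17.4% of all genes, with a median of 0.07. Myc, which drives growth and mitochondrial biogenesis, fell by 0.89 ± 0.16 (adjusted p = 0.00134), and Pprc1, a coactivator of the PGC-1 family, by 0.30 ± 0.11 (adjusted p = 0.0438). Ppargc1a, the best known of these coactivators, was barely expressed (group means from 3.15 to 3.64) and differed by 0.49 ± 0.23 (adjusted p = 0.105). Ppargc1b (0.19), Esrra (-0.32), Nrf1 (-0.09), Gabpa (0.05), Tfam (0.22) and Hif1a (0.08) did not pass, with adjusted p from 0.0635 to 0.508.

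Markers of cell types moved in the same contrast, where 12.4% of all genes rose and 17.4% fell. The part of the cell types in the result was not tested. In bulk samples fewer cells of a type and less RNA per cell cannot be told apart. In T-PNU against T-DM1 samples 6 of 9 genes of tumor epithelium and stroma fell and 2 rose (median -1.06, Col1a1 lowest at -1.62 and Krt14 highest at 1.02), and their mean deviation ran from -0.99 to 0.23 in T-PNU and from 0.16 to 0.53 in T-DM1 samples. T-PNU samples C2 and H1, lowest in the OXPHOS genes, were also the lowest of their group in these genes (-0.99 and -0.74). They were lowest in proliferation genes as well (-0.94 and -0.40). H1 was the highest of its group in neutrophil (0.76), B cell (2.19), dendritic cell (0.50) and endothelial genes (0.75). C2 was the highest of all 24 samples in T cell (1.84) and leukocyte genes (0.71), and stood next to H1 within its group in B cell genes (2.03). It was the lowest of its group in macrophage and monocyte genes (-0.07). In cytosolic ribosomal protein genes H1 was the lowest T-PNU sample (-0.27) and C2 the highest (0.27).

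Leukocyte genes rose in 2 of 3 cases (Ptprc by 0.76), with mean deviations from -0.12 to 0.71 in T-PNU and from -0.39 to 0.02 in T-DM1 samples. Of 10 macrophage and monocyte genes 6 rose and 0 fell (Adgre1 by 0.86), from -0.07 to 0.49 in T-PNU and from -0.67 to -0.05 in T-DM1 samples. All 4 NK cell genes rose (Klrd1 by 1.01), as did 2 of 5 dendritic cell genes (Xcr1 by 1.19), 2 of 3 endothelial genes (Pecam1 by 0.72), 1 of 6 neutrophil genes (Retnlg by 0.84) and 1 of 4 muscle and fat genes (Ucp1 by 0.89), with 0 falls among them. The share of neutrophil genes that rose (16.7%) was near that of all genes (12.4%), and lists this short give only rough shares. Of 7 T cell, 6 B cell, 6 proliferation and 3 red blood cell genes 0 passed, at medians of 0.90, 1.00, -0.30 and -0.68. No marker gene was at 0, and the lowest group of markers was that of muscle and fat, with a gene at a mean of 2.89.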

How the data were processed

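RNA from the CD45+ fraction of 24 tumors (6 per group) was sequenced from stranded libraries of polyadenylated RNA. The authors aligned reads to mm10 with STAR 2.4.2a, counted genes with featureCounts (Subread 1.5.0), removed genes averaging fewer than 5 counts and deposited log2 normalized values for 16996 genes, whose transformation is not given in the sources used here. Counts were not recoverable, so no count model was used, and the depth per sample is unknown.

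Samples were grouped by their labels. The 4 groups entered 1 fit in limma 3.58.1 (R 4.3.3) with a mean-variance trend and 20 residual degrees of freedom. The 6 comparisons between groups were taken from it, with p-values adjusted by Benjamini-Hochberg over all genes and called under 0.05. P-values measure the spread between samples, each labelled as a separate sample. The fit was tested on simulated data. Alternatives were the 20 samples of the heatmaps, quantile normalization, sample weights, genes with a mean above the median, a length trend removed (loess span 0.3), a stricter rule (adjusted p under 0.01 and fold over 2) and leaving out each sample. Removal of GC trends and leaving out T-PNU replicates 2 and 5 (H1 and C2) were added after seeing the data.

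Members and lists were chosen with earlier results of these data known. Named genes were the 5 largest called rises and falls in each comparison, the extremes of each complex in the 3 comparisons among untreated, T-DM1 and T-PNU, isoform groups, catalytic subunits, and the extremes of the related lists with known regulators. The values of 1 member are not reported here. Other genes named beside a count or a range were chosen after their values were seen. Transcript GC content, length and gene coordinates came from GENCODE M21, and promoters from RefSeq. Python 3.11.15, pandas 2.3.3 and matplotlib 3.10.9 were used.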

Additional observations from a re-analysis of the deposited data

Results flagged for a closer look

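Within groups of 6, single samples stood apart from the other 5 by Dixon's ratio in 18 of 184 groups examined, where chance gives about 5%. The 184 groups share samples and are not independent.

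T-DM1 sample H3 was the low sample in 7 of them: Atp5d at 11.66 (others 11.98 to 12.09), Atp5g2 at 9.59 (9.98 to 10.13), Ndufa11 at 10.04 (10.25 to 10.37), Ndufa13 at 11.09 (11.43 to 11.57), Ndufb7 at 10.27 (10.65 to 10.82), Ndufs7 at 9.76 (10.13 to 10.32) and Uqcr11 at 10.17 (10.54 to 10.70). H3 was also the T-DM1 sample whose deviations correlated negatively with GC content (-0.19), and the part of GC content in these values was not tested.

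Untreated sample B1 was low for Cox4i2 at 5.15 (others 5.83 to 6.17) and Sdhc at 11.25 (11.61 to 11.80) and high for Cox7a2l at 12.40 (11.77 to 11.97). Its mean deviation was -0.097 over all members (others 0.021 to 0.075), -0.11 over complex I (0.025 to 0.064) and -0.063 over complex III (0.022 to 0.061).

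Trastuzumab sample H2 was low for Atp5d at 11.36 (others 11.76 to 12.00) and Ndufa11 at 9.63 (10.01 to 10.19), and A3 was high for Cox7a2 at 12.52 (11.94 to 12.14). T-DM1 sample F3 was high for Cox8a at 11.98 (11.80 to 11.86), and T-PNU sample H1 was low for Ndufv1 at 10.84 (11.14 to 11.30).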

How the results depend on the processing

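In T-PNU against T-DM1 the number of members called (33) stayed within 1.5 times under 20 samples, weights, quantile normalization and removal of length or GC trends. It was 0 under the stricter rule, 4 without T-PNU replicates 2 and 5 and 17 to 37 when leaving out each sample in turn. In T-PNU against untreated samples (0 called) it was 20 over the 20 samples, 25 with weights and 0 to 10 when leaving out each sample. In T-DM1 against untreated samples (4 called) it was 0 under the stricter rule, over the 20 samples, and with the GC trend or GC and length trends removed, 15 with weights, 2 with the length trend removed and 0 to 10 when leaving out each sample. In T-PNU against trastuzumab samples it was 10 over the 20 samples and 1 with weights, and in T-DM1 against trastuzumab samples 3 with weights. These counts are of members only. The share of all genes called moved as well, in T-PNU against T-DM1 from 17.4% lower with all samples to 11.8% without H1. That share was not counted for every fit. Apart from the stricter rule, which can only lower a count, the cause of the changes in the counts was not tested.

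Of 1077 alternative values of named genes 922 kept direction and call, 92 lost and 36 gained the call and 27 reversed. In T-PNU against T-DM1 the reversed values were Cox6a1 at 0.17 (GC) and 0.15 (GC and length), Cox7a1 at -0.022 (quantile), -0.016 (length), and -0.00932 and -0.000744 in fits without 1 sample that ran up to 0.10, Cox8a at 0.012 (GC), Ndufa4l2 at 0.083 (GC) and 0.11 (GC and length), Ndufab1 at -0.00891 (GC), Ndufs1 at -0.00395 (weights), -0.045 (GC), -0.032 (GC and length) and -0.00279 in fits without 1 sample that ran up to 0.068, Sdha at 0.0016 (length), 0.011 (1 sample left out) and 9.75e-05 (without T-PNU replicates 2 and 5), and Uqcrfs1 at 0.014 (length). In T-DM1 against untreated samples they were the second Ndufa13 gene at -0.065 (GC) and -0.051 (GC and length), and Sdhb at -0.024 (length), -0.049 (GC), -0.039 (GC and length), and -0.026 and -0.0014 in fits without 1 sample that ran up to 0.067. In T-PNU against untreated samples Uqcrc1 was at 0.0011 without T-PNU replicates 2 and 5. No paired analysis was made, since the groups were separate cohorts of mice and the labels pair no samples between them. The unknown depth and transformation limit what can be said of low genes and of the size of folds.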
